A study of Mus musculus with 60 samples.

Results

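The data concern the machinery that releases synaptic vesicles, followed across the striatum of 60 mice. The members were taken by gene symbol, as every listed gene whose symbol begins with Snap2, Sv2, Syt and a digit, Stx, Vamp, Rab3, Rims, Unc13, Cplx or Syngr, plus Syn1, Syn2, Syn3, Syp, Nsf and Napb. This rule found 59 of 9066 genes in the gene table and 789 of 114691 rows in the exon table. The rule itself used no measured value, but it was set with earlier results of these data known. The prefix Rab3 also took in 6 Rab proteins that are not Rab3 (Rab30, Rab31, Rab33a, Rab33b, Rab34 and Rab36), and these are counted apart below.

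The mice were HS-CC animals, an outbred heterogeneous stock, from a line bred over generations for its response to haloperidol, a dopamine receptor blocker that can induce catalepsy (a loss of voluntary movement). The labels called 30 mice catalepsy responders and 30 non-responders, with 15 females and 15 males among the responders and 13 females and 17 males among the non-responders. Striatum was dissected by hand and polyA RNA was sequenced, 1 library a mouse. Age, drug dose and time of sacrifice were not given in the sources used here, so the phenotypes can be read only as the 2 labels, with nothing on whether the tissue itself had met the drug.

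Neurotransmitter is stored in vesicles that dock at the presynaptic membrane, are primed, and fuse when calcium enters. Fusion is driven by the SNARE complex, built from synaptobrevin on the vesicle (Vamp2) and from a syntaxin and SNAP-25 on the plasma membrane. Munc13 (Unc13a, Unc13b) and RIM (Rims1 to Rims3) prime the vesicle, Rab3 tethers it, synaptotagmin 1 senses calcium, synapsins hold vesicles in reserve, and NSF takes spent complexes apart. Medium spiny neurons, the main cells of the striatum, make these proteins for their own terminals, most of which lie in other nuclei, while terminals of cortical axons in the striatum are made from RNA that stays mostly in the cortex.

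Snap25 carries the best known exon choice of the group. A transcript takes either exon 5a or exon 5b, which are spliced in a mutually exclusive way and have the same length. Both are shown from the reference annotation, so that the letters that separate them can be seen. Capitals mark the bases at which the 2 exons differ.

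Snap25 exon 5a, chr2:136769743-136769860 (GRCm38, plus strand): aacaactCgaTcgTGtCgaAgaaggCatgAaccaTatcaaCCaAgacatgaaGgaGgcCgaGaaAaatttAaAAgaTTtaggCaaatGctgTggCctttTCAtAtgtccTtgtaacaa

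Snap25 exon 5b, chr2:136770057-136770174 (GRCm38, plus strand): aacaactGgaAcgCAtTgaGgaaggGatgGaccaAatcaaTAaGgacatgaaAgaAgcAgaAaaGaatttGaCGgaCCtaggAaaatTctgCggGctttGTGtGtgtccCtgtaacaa

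The 2 exons were 118 bases long and differed at 31 of them, an identity of 73.7%, with the differences spread over their whole length. The deposited rows for both exons, and what they held, are described with the exon results.

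The libraries held between 4913122 and 21872744 reads on listed genes (median 14520042). A set of 17 mice (numbers 41 to 56 and 26) held at most 9507322 reads and the other 43 at least 12051239, with 8 responders and 9 non-responders among the 17. Mice 4, 5, 62 and 63 stood apart by a stronger 3′ bias, a rise of reads from the first to the last exon of a gene, of at least 0.50 against at most 0.18 (log2, from end to end of a gene) in every other mouse, and 2 of these 4 were responders. Mice 41 to 56 lay at the other end of this measure, from -0.285 (mouse 52) to -0.147 (mouse 54). Outside that run only mouse 22 (-0.158) was as low. The tissue label was met by its markers: 11 of 15 symbols listed for medium spiny neurons were in the table, with medians from 1564 (Gpr6) to 26820 (Pde10a). The symbols Drd1 and Drd1a, both listed, name the same gene. Markers of cortical excitatory neurons were also present, 4 of 12 listed genes, among them Tbr1 (median 1450), Rorb (978) and Cux2 (710). The mean level of the 4 is called the cortical marker level here, and it ran from 7.92 to 10.91 on the log2 scale over the mice. It averaged 9.72 ± 0.62 (SD, n = 30) in responders and 9.83 ± 0.60 (SD, n = 30) in non-responders.

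The release machinery was among the more abundant RNA in this tissue. The members, 0.651% of the listed genes, held 1.33 to 2.28% of the summed value of a mouse (median 1.80%). Per kilobase of annotated exon sequence, the median member stood at 227 against 136 over all genes, and 18 of the 59 members ranked in the top 10% of the table. The length used covers the exons of every annotated transcript of a gene, whether or not it is used in this tissue. For Snap25 it was 6791 bases, including an exon of 4599 bases from a transcript that keeps an intron. Levels and ranks per kilobase thus depend also on which transcripts are annotated. All 59 members averaged at least 10, the minimum for testing, 43 averaged at least 500 and 16 less than 500. The rule found no gene under the symbols Stx1a, Vamp1, Syt4, Cplx1 to Cplx3, Rims4, Unc13c, Rab3b, Rab3d or Syngr3. These were thus not analysed here.

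The SNARE proteins of the synapse led the list. Snap25, the plasma membrane SNARE with 2 helices, ranged from 21926 to 57413 (median 37967) in deposited values, which are reads scaled to a common upper quartile, and had the highest level per kilobase of the members, 5659, rank 40 of all genes. Vamp2, the vesicle SNARE, ranged from 11536 to 21204 (median 15049), and stood at 4085 per kilobase. The SNAREs that serve other membranes were far lower: Snap23 stood at 50.8 per kilobase, Vamp8 at 50.8, Vamp5 at 11.7, and the Golgi and endosome syntaxins between 32.0 (Stx8) and 813 (Stx12). Stx19 was the lowest of all members, at 0 to 61.8 (median 7.79), so that its values rest on few reads.

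Among the 10 synaptotagmins, Syt11 and Syt1 stood above the other 8 per kilobase. Syt1, the fast calcium sensor for release, ranged from 14088 to 40435 (median 25090). Syt11, a synaptotagmin that does not bind calcium, ranged from 14177 to 24132 (median 20388) with the smaller coefficient of variation, 0.119 against 0.250. Their levels per kilobase, 3820 for Syt11 and 3021 for Syt1, were followed by 1201 for Syt5 and 692 for Syt7. Syt2, the sensor of fast hindbrain synapses, stood at 227, and its values ran from 972 to 2978.

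The vesicle proteins, synapsins and priming factors followed. Syngr1 (synaptogyrin) stood at 2383 per kilobase, Sv2a at 1595, Sv2b at 1115, Syp (synaptophysin) at 1041 and Sv2c at 163. Rab3a, the small GTPase of synaptic vesicles, stood at 2916 per kilobase and Rab3c at 979. Of the synapsins, Syn2 stood at 939 per kilobase, Syn1 at 878 and Syn3 at 24.7. Nsf, the ATPase that separates used SNARE complexes, stood at 1213 and Napb, its adaptor, at 1346. Priming factors were lower than their SNARE partners, from 616 for Rims1 and 413 for Unc13a down to 23.7 for Unc13b.

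Members differed in how much they varied between mice. Among members averaging at least 500, the median coefficient of variation was 0.175, against 0.145 over the 5198 genes at that level. Sv2c (0.346), Syn1 (0.326), Stxbp5l (0.320) and Syt2 (0.285) were among those that varied most. Stx16, a syntaxin of the Golgi, varied least, at 0.0695. Mouse 63 was extreme in both directions, with the highest value of 11 members, among them Vamp3, Vamp5, Vamp8, Stx4a and Stxbp3. The lowest value fell in mouse 63 for 10 members, among them Sv2c (130, against a median of 1592), Stxbp5l (127, median 1211) and Syn1 (1071, median 2732). It fell in mouse 42 for another 10, among them Snap25, Syt1, Nsf and Syn2. Mouse 63 had the strongest 3′ bias (1.62), and mouse 42 held 5047110 reads with a bias of -0.25. Extremes were not counted over all genes, so these counts show nothing particular to the members.

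**Figure D1:**
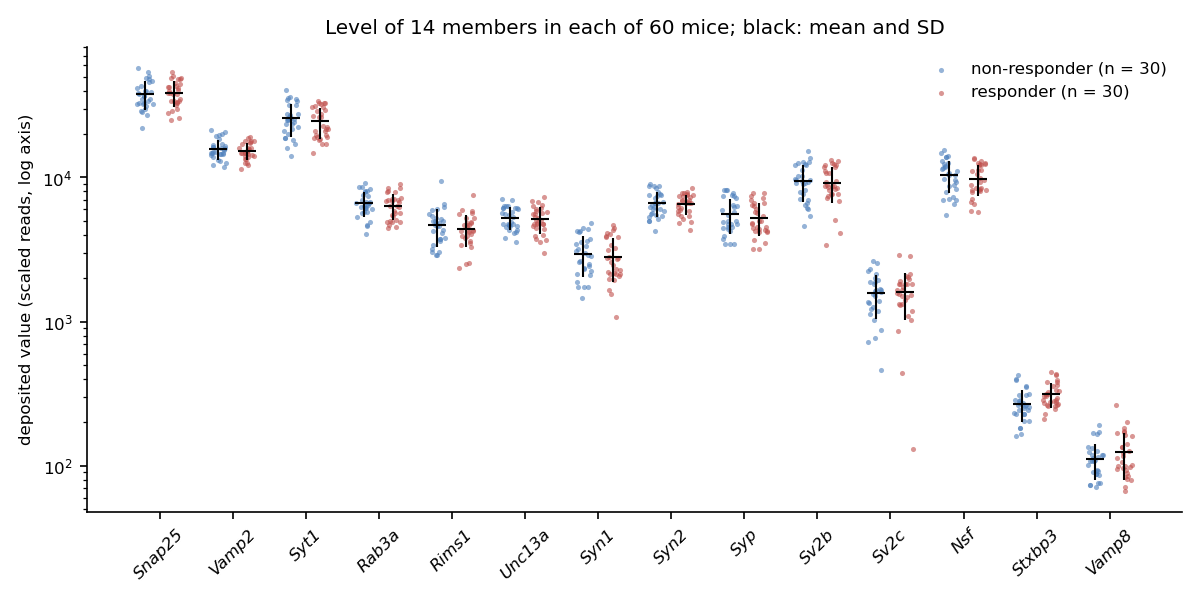
Deposited value (scaled reads, logarithmic axis) of 14 members in each of the 60 mice, with non-responders in blue and responders in red (n = 30 each) and black marks for the mean and SD. The levels run from about the range of Vamp8 (67 to 264) to that of Snap25 (21926 to 57413), the 2 phenotypes overlap for every gene shown, and 1 responder lies far below the rest for Sv2c.

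Whether responders and non-responders differ in this machinery was asked with limma across all 8535 genes that passed the minimum, with sex as a term. None of the 59 members passed an adjusted p of 0.05, where 9 genes of the whole table did (0.105% of those tested, 0.0469% higher and 0.0586% lower in responders). At an unadjusted p under 0.05 there were 4 of 59 members and 554 of 8535 genes, much the same share. On whole reads recovered from the values edgeR called 7 genes and DESeq2 23, with 0 members by either and 3 members at an unadjusted p under 0.05 by each. The median difference of the members was -0.03 (log2), against 0.00 over all genes (-0.003305), and 41 members were lower and 18 higher in responders. The signs were not counted over all genes, and members are correlated, so this count is a description. With the cortical marker level as a term, the member median was -0.02 (-0.01521), against 0.00 over all genes (0.0009417). In that fit 23 members were higher in responders. The 95% interval of the difference lay within 0.5 of zero for 58 of 59 members, Stx19 being the exception.

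Among the core proteins, the intervals of Snap25, Vamp2, Syn1, Nsf and Syt1 held zero and differed in width. Snap25 was 38827 ± 7747 (SD, n = 30) in responders and 38030 ± 8408 (SD, n = 30) in non-responders, a log2 difference of 0.03 with an interval of -0.13 to 0.19. Vamp2 differed by -0.05 (-0.15 to 0.06), Syn1 by -0.08 (-0.33 to 0.17) and Nsf by -0.09 (-0.28 to 0.10). Syt1, the calcium sensor, differed by -0.07 (-0.25 to 0.12). These intervals leave room for small differences, and a p above the threshold does not show that the groups were alike.

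Outside the core, Stxbp3 had the smallest p of the members. This gene encodes Munc18c, a partner of syntaxin 4 in fusion outside the synapse. Its values ran from 212 to 443 (median 298) in responders and from 161 to 423 (median 262) in non-responders, with most of the range shared. The log2 difference was 0.24 ± 0.08 (SE), p = 0.003613 before adjustment and 0.323 after it, by limma. The difference was 0.28 without the 17 mice of low depth and 0.14 within them. The highest value was that of mouse 63, a responder of strong 3′ bias, and without mice 4, 5, 62 and 63 the difference was 0.26. Stxbp3 also fell as the cortical marker level rose, by the slope given among those of the other membranes, and the part of that level in the difference was not tested.

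Rab3c came next. Its values ran from 6212 to 17256 (median 12581) in responders and from 6801 to 17371 (median 10673) in non-responders, a log2 difference of 0.20 ± 0.08 (SE) with an adjusted p of 0.575 by limma. Rab33b, a Golgi Rab, differed by 0.09 ± 0.04 (SE), Syt12 by -0.12 ± 0.06 (SE) and Syt7, a slow calcium sensor, by -0.11 ± 0.06 (SE). Their adjusted p were 0.709, 0.761 and 0.892 by limma. By sex, 0 members passed by limma where 3 genes did (0.0351% of those tested), with 1 member and 174 genes at an unadjusted p under 0.05. The test of whether the phenotype difference itself changes with sex passed for no member and no gene by limma (0% called, 0 members and 48 genes at an unadjusted p under 0.05).

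Among 37 further genes of the release and recycling pathway, 0 passed by phenotype, with log2 differences from -0.09 (Rimbp2, a scaffold of the active zone) to 0.11 (Sytl5, a synaptotagmin-like Rab27 effector). The median was -0.04, close to that of the members.

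Many members varied with the cortical marker level of the dissected tissue. The slope of each gene on the cortical marker level was fitted with phenotype and sex as terms, and a slope is the log2 change of the gene for a change of 1 in that level. It passed for 46 of 59 members (78%), 31 rising and 15 falling, where it passed for 51% of all genes tested, 26.3% rising and 24.7% falling. The median slope of the members was 0.16 against 0.00 over all genes. This median was 0.09 with the 3′ bias as a term (0.08719) and on Tbr1 alone (0.08875), 0.10 without mice 4, 5, 62 and 63 (0.09633) and 0.07 within the 17 mice of low depth, against medians of all genes between -0.01 and 0.00 in these settings. In these bulk samples, fewer cells of a type and less RNA per cell cannot be told apart. Markers of other cells moved along the same axis: 8 of the 11 medium spiny neuron markers fell, with a median slope of -0.29 over the 11, as did 4 of 5 oligodendrocyte markers (median -0.30), and none of either list rose. Of 4 astrocyte and 4 microglia markers 2 each fell, the 1 endothelial marker rose, and the 1 thalamus marker, Tcf7l2, fell (-0.46). The 3′ bias was also lower where the marker level was higher (r = -0.32 over 60 mice, a description). The part of each in the slopes of the members was not tested apart from the fits named here.

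The synaptic core rose with the cortical marker level. Syn1, which ties vesicles to the cytoskeleton, had the steepest slope, 0.65 ± 0.06 (SE, adjusted p = 2.861e-13 by limma), and its values ran from 1071 to 4825 (median 2732). Sv2b, a vesicle glycoprotein known from cortical neurons, had 0.64 ± 0.05 (SE, adjusted p = 8.809e-17 by limma). It measured 4121 in mouse 56, of the lowest marker level, and 12253 in mouse 13, of the highest. Stxbp5l (tomosyn 2, an inhibitor of SNARE assembly) had a slope of 0.58 and Rims1 one of 0.53. Stxbp5l measured 1265 in mouse 56 and 1487 in mouse 13, and its slope on the 3′ bias was -2.11. That of Syn1 was -0.74, and the lowest value of both genes was that of mouse 63. Syp (0.47), Syt1 (0.45), Snap25 (0.38), Nsf (0.38) and Napb (0.34) also rose.

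By role, all 5 priming and active zone genes rose, all 3 synapsins, both disassembly factors, and 4 of 5 vesicle membrane proteins. Of these, Syn3 passed at an adjusted p of only 0.04549 by limma. Syn3 measured 445 in mouse 56 and 280 in mouse 13, and its slope on the 3′ bias was -1.75. Of the 10 synaptotagmins, 7 rose and 1, Syt6, fell. The paralogs parted within the vesicle membrane group: Sv2b had the slope given above, Sv2a one of 0.28 and Sv2c one of 0.12 that did not pass (adjusted p = 0.517 by limma). With the 3′ bias as a term the slope of Sv2c was -0.23 (adjusted p = 0.009674 by limma), so that its direction depended on that term. Rab3a rose by 0.23 per unit while Rab3c, at 0.02, did not pass, and the plot of these genes against the marker level shows Rab3c as a level cloud.

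Apart from Syt6, the members that fell were SNAREs, Rabs and a binding protein that serve other membranes, and not all members of that kind fell. Vamp8, a SNARE of late endosomes and of secretion outside neurons, had the lowest slope, -0.36 ± 0.08 (SE, adjusted p = 0.0002506 by limma), with values from 66.8 to 264. Vamp5, a SNARE of muscle and endothelium, had a slope of -0.28 and Stxbp3 one of -0.26. Vamp3, the widely expressed relative of Vamp2, had -0.23 against 0.22 for Vamp2 itself. Snap23, the relative of Snap25 in other tissues, had -0.15 against 0.38 for Snap25. Of 11 syntaxins 1 rose and 5 fell, with Stx4a, the plasma membrane syntaxin of many tissues, at -0.17. Rab34, a Rab of the Golgi and primary cilium, had -0.19, and of the 6 Rabs taken in by the prefix 4 fell and 1, Rab33a, rose (0.17). On the 3′ bias, Vamp8 had a slope of 0.76, Vamp5 0.80, Stxbp3 0.50 and Vamp3 0.30, while Snap23 had 0.01. The highest value of Vamp8, Vamp5, Stxbp3 and Vamp3 was that of mouse 63. With the bias as a term, 13 members fell with the cortical marker level, against 15 in the main fit.

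The slopes on the cortical marker level were read on values scaled to the upper quartile. Scaled to the total of each mouse, the whole table shifted by -0.05 in its median, 1441 genes rose and 3145 fell, and the members gave 25 rising and 17 falling. Within the 17 mice of low depth 15 members passed, 14 rising and 1 falling, where 542 of 8820 genes did. Without those 17 mice 44 of the 58 members then tested passed, where 4440 of 8410 genes did. Without the 4 mice of strong 3′ bias it was 39 members and 3292 of 8547 genes. With the bias as a term it was 43 members and 3548 of 8535 genes. The further pathway genes went the same way as the core, 26 of 37 rising and 3 falling (Synpr, Vti1b and Ppfia4). Cadps2, a factor of dense core vesicles, had the steepest slope of these, 0.88.

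**Figure D2:**
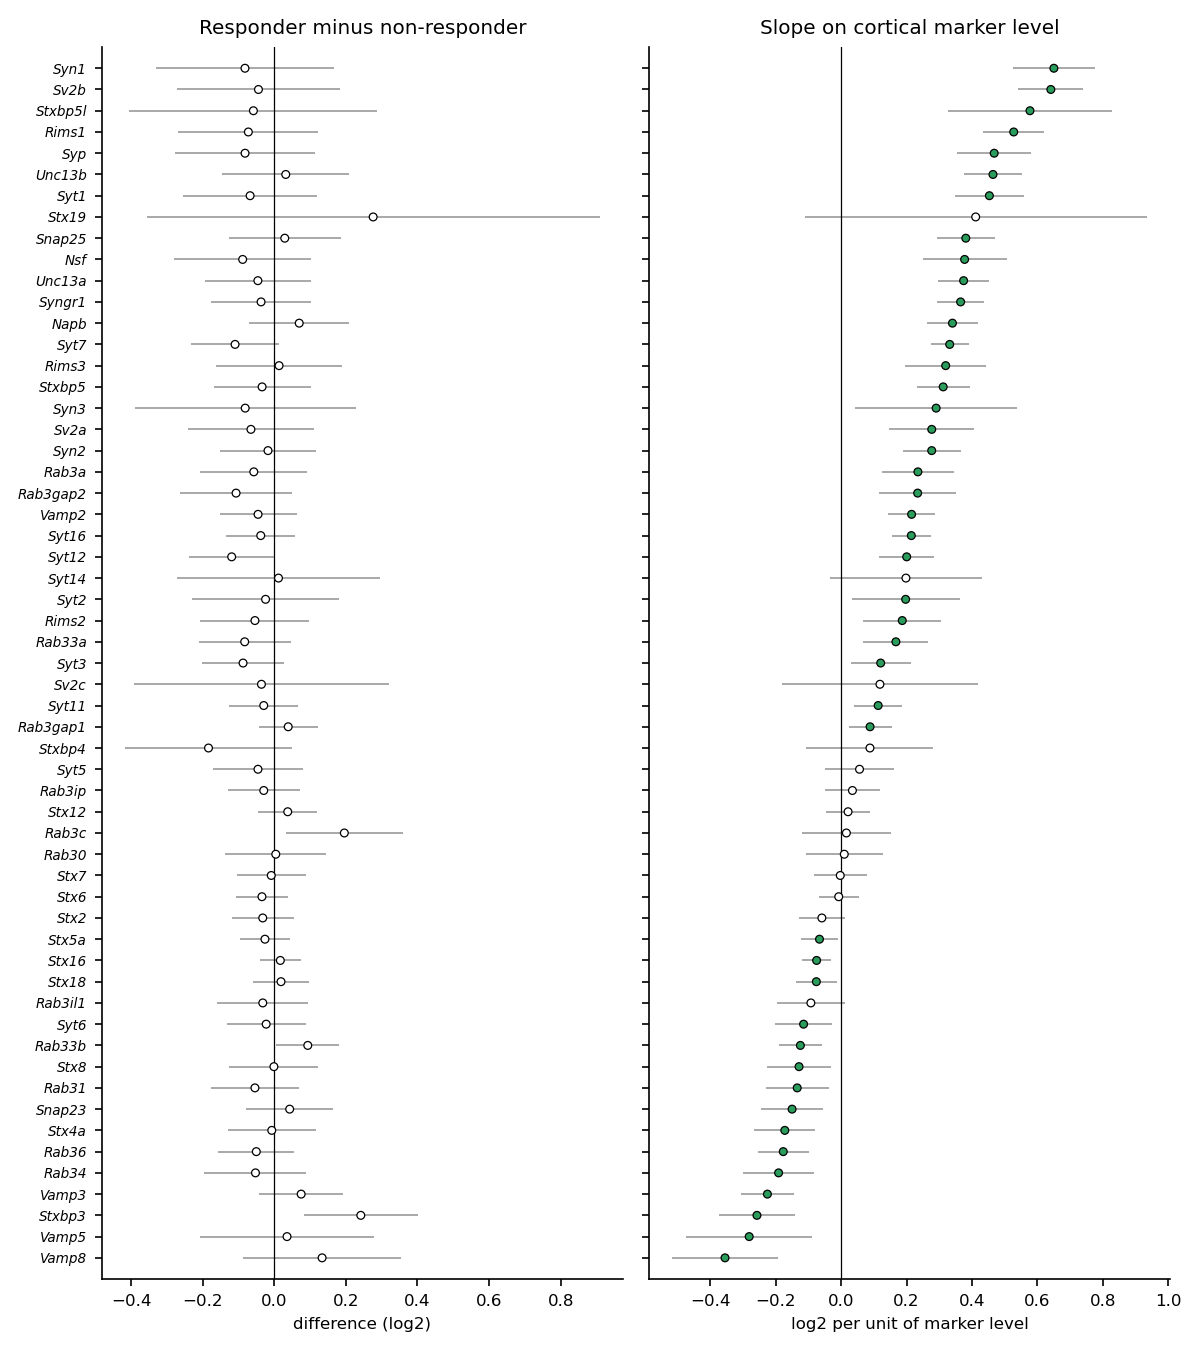
The 57 members drawn of 59, with the responder minus non-responder difference on the left and the slope on the cortical marker level on the right (log2 scales, points for the estimate, lines for 95% intervals, filled green where the adjusted p of limma was under 0.05). No point on the left is filled, while 44 on the right are, with the synaptic genes Syn1 and Sv2b at the top and Vamp8 and Vamp5 at the bottom.

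**Figure D3:**
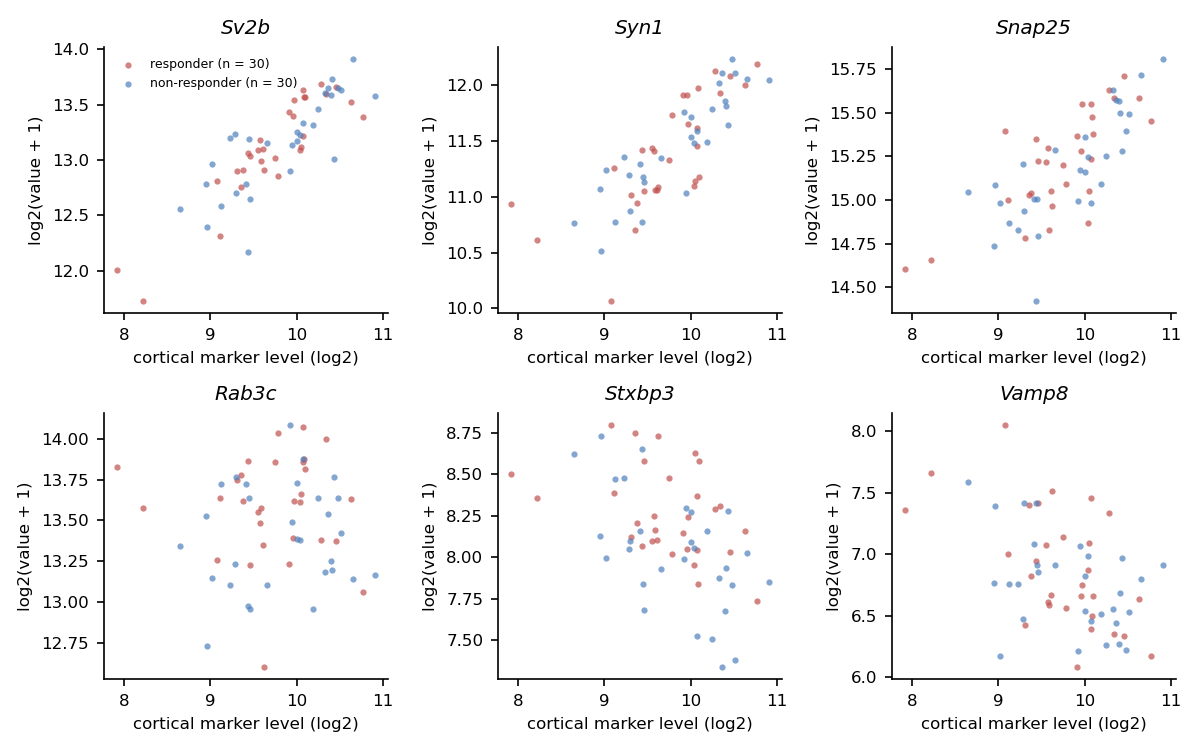
Log2(value + 1) of 6 members against the cortical marker level (mean log2 value of 4 cortical genes) in 60 mice, responders in red and non-responders in blue. Sv2b, Syn1 and Snap25 climb (slopes 0.64, 0.65 and 0.38), Rab3c is flat (0.02), and Stxbp3 and Vamp8 decline (-0.26 and -0.36), with both phenotypes spread along the axis.

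Members also moved together from mouse to mouse. Over the 1711 pairs of members the Pearson correlation of log2 values was at least 0.8 for 63 pairs (3.68%), against 0.815% of the 36418845 pairs of all 8535 genes, and at most -0.8 for 11 (0.643%), against 0.324% of all pairs. The median was 0.04 for members and 0.00 for all genes (0.0017), since pairs of both signs were common. By permutation, 1036 pairs (60.5%) passed an adjusted p of 0.05, each with an absolute r of at least 0.281, a size that 54.5% of all gene pairs reached, so that the number of called pairs was near the background. All points share the scaling of each library, its depth and the cortical marker level.

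Among the closest pairs were proteins of the vesicle and Nsf. Nsf and Syt1 had r = 0.948 and rho = 0.958 (60 mice), and Syngr1 and Syp 0.944 and 0.938. Nsf and Syp had r = 0.937 and rho = 0.95, and Syp and Syt1 0.925 and 0.926. The permutation p was 1e-05 for each, the smallest that 100000 resamples can give, with an adjusted value of 4e-05 over the 1711 pairs. Without the 2 mice farthest from the median of the first gene of each pair, r stayed between 0.920 and 0.944, and within the 17 mice of low depth it lay between 0.935 and 0.948. Pairs of the opposite sign, named after their values were seen, set Vamp3 against the synaptic genes, most of all Sv2a (r = -0.895) and Syp (r = -0.878).

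Some members also followed the 3′ bias of the library. The fitted change per unit of bias passed for 37 of 59 members (17 rising, 20 falling), where it passed for 77.2% of all genes (39.5% rising, 37.7% falling), so the count says little of the members. The lowest slopes were those of Stx19 (-2.48), Stxbp5l (-2.11), Sv2c (-2.03), Syn3 (-1.75) and Syt14 (-1.66). Without mice 4, 5, 62 and 63, 14 members passed, where 3650 of 8547 genes did. Across the members the slope ran against the annotated exon length of the gene (Spearman rho of -0.65 over 59 genes). This rho is a description, since genes are not independent replicates. For Sv2c, Stxbp5l, Syn3 and Syt14, the lowest value was in each case that of mouse 63, the mouse of strongest bias (1.62).

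The exon table allowed the make-up of each transcript to be followed. Each of its rows is a gene and an exon start in the mm9 genome, and rows are numbered here from the 5′ end of the gene. Of the 789 rows, 739 (93.7%) could be tied to an annotated exon of GRCm38 by the gaps between the starts of a gene, to within 5 bases. Use of an exon row was taken as the log2 ratio of its value to the sum of the other rows of the gene, over 66690 rows of which 493 were of members. Deposited exon values are scaled and rounded by the authors.

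Exon length set what could be seen. Of 598 internal coding rows of members, 20 of 21 under 50 bases and 71 of 71 between 50 and 74 bases averaged under 10. Between 75 and 99 bases it was 60 of 105, from 100 to under 150 bases 27 of 167, and at 150 bases or more 34 of 234. The submitters' processing notes name Bowtie 0.12.7, which aligns reads without gaps, and its part in this pattern was not tested. Nearly all exons under 75 bases could thus not be followed in these data, also where they are spliced alternatively.

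**Figure D4:**
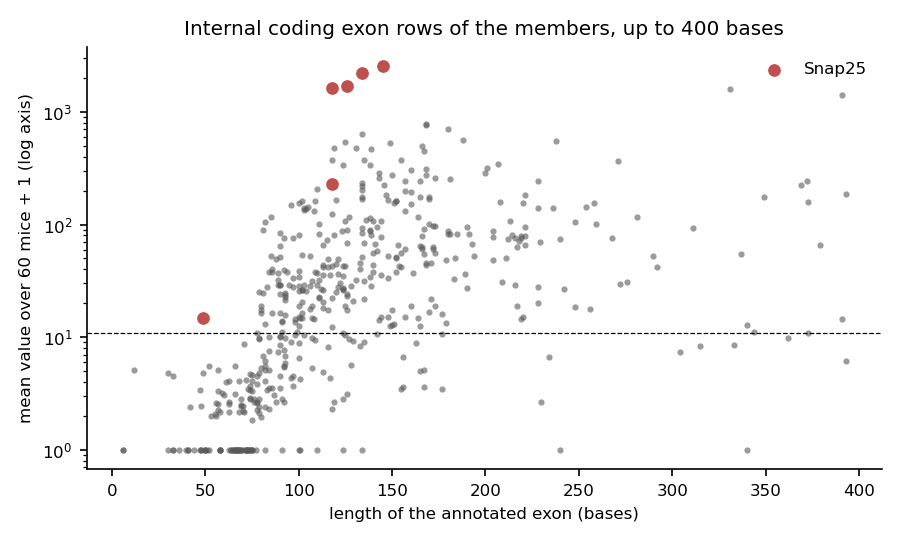
Mean value over 60 mice plus 1 (logarithmic axis) of internal coding exon rows of the members against the length of the annotated exon in bases, up to 400 bases, with the rows of Snap25 in red and a dashed line at a mean of 10. Nearly all rows under 75 bases lie below the line, the 49-base exon of Snap25 just above it, and longer rows spread over 2 to 3 steps of the logarithmic axis.

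Snap25 had 9 rows. The last, with the stop codon and the long 3′ end, averaged 28850 and held 75.1% of the gene, and the shorter ones 2 (2196), 8 (2543), 7 (1686), 6 (1639) and 1 (1101) followed. Row 4, the 49-base exon, averaged 13.9. Rows 5 and 6 are exons 5a and 5b, and they averaged 227 and 1639, so that exon 5b, the form that the adult brain is known for, held most of the sum. The share of 5a in the sum of both was lowest in mouse 41, 6.73%, with a 95% Wilson interval of 5.39 to 8.38% for 1084 reads, and highest in mouse 44, 21.2%, with one of 18.6 to 24.2% for 805 reads. Such intervals cover counting error only.

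By phenotype the share of 5a ran from 8.51 to 21.2% (median 11.3%) in responders and from 6.72 to 19.1% (median 12.3%) in non-responders, with ranges that overlap almost in full. The means were 12.04 ± 2.79% and 12.6 ± 3.14% (SD, n = 30 each). They differed by -0.549 percentage points, p = 0.479 (permutation test, two-sided, 100000 resamples). None of the 9 rows passed by phenotype, with the smallest unadjusted p, 0.200, at row 2, by limma.

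Row 3 of Snap25 behaved unlike the rest of the gene. It begins where a coding exon of 42 bases begins, but the annotation also holds a transcript that keeps the intron after it, Snap25-203, with an exon of 4599 bases from the same start. In the 17 mice numbered 40 to 56, a run chosen after the values were seen, the row measured 259 to 538 (median 350). In mice 4, 5, 62 and 63 it measured 6 to 32, and in the other 39 mice 61 to 148 (median 100), so that the 3 sets of mice did not overlap. Mouse 26, of low depth but outside the run, measured 137 and fell with the others. As a share of the gene the row reached 0.579 to 2.45% in mice 40 to 56 and 0.122 to 0.459% in the 39. It was the 1 of 493 member rows tested that parted these mice without overlap, where 0.192% of all rows did, a share near that of the members. There were 9 responders and 8 non-responders among mice 40 to 56, and the row did not pass by phenotype (log2 difference -0.03 ± 0.34, SE).

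By phenotype, exon use was compared in the same way. None of the 493 member rows passed, where 15 of 66690 rows did (0.0225%), and 26 member rows and 3180 in all had an unadjusted p under 0.05. The 5 member rows of smallest p were row 8 of Stx16, rows 14 and 12 of Syn2, row 3 of Rab3c and row 19 of Stxbp4. Row 14 of Syn2 is the last exon of Syn2-201, while row 12 runs on, in other transcripts, into an exon of 2364 bases that ends them there. Row 12 is thus shared by both forms. The coding part of the exon behind row 14 is printed because it belongs to Syn2-201 alone.

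Syn2-201 last exon, coding part, chr6:115281088-115281220 (GRCm38, plus strand): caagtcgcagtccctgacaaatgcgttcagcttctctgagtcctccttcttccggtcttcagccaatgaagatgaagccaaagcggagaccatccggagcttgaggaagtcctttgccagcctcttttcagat

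Row 14 held 5.84 to 12.5% of the gene in responders (median 7.17%) and 6.18 to 11.2% in non-responders (median 8.89%). Row 12 held 68.1 to 78.7% in responders (median 72.9%) and 66.2 to 76.3% in non-responders (median 69.8%). The responders were lower in the first and higher in the second, with wide overlap in both, and the highest share of each row was that of mouse 63. The log2 ratio of row 14 to the other rows was lower in responders by -0.25 ± 0.06 (SE), with an adjusted p of 0.289 by limma, and that of row 12 higher by 0.18 ± 0.05 (SE), adjusted p = 0.385 by limma.

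Neither row passed in this fit, but both did when the 3′ bias of each mouse was a term. The differences were then -0.27 and 0.16, each with an adjusted p of 0.01762 by limma, among 70 rows called in all. Without mice 4, 5, 62 and 63 they were -0.27 and 0.18, with adjusted p of 0.02091 and 0.0461 by limma, among 48 called. Without the 17 mice of low depth they were -0.23 and 0.20, and within those 17 they were -0.27 and 0.11, with neither row past the threshold in these smaller sets. The direction was the same in every setting run, and the level of the Syn2 gene as a whole differed by -0.02 ± 0.07 (SE). Rows far from the 3′ end were lower in responders too, row 1 by -0.23 ± 0.09 (SE) and row 8 by -0.12 ± 0.06 (SE), neither past the threshold, so that a choice between the ends was not isolated by these rows.

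Row 8 of Stx16, a 166-base exon shared by most of its transcripts, was lower in responders by -0.27 ± 0.07 (SE, adjusted p = 0.273 by limma). Its share of the gene ran from 1.61 to 4.03% (median 2.79%) in responders and from 2.53 to 5.05% (median 3.37%) in non-responders. Row 3 of Rab3c was lower by -0.25 ± 0.09 (SE) and row 19 of Stxbp4 higher by 0.48 ± 0.16 (SE), with adjusted p of 0.645 and 0.657 by limma. The Stxbp4 row averaged only 23.55 in scaled reads.

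**Figure D5:**
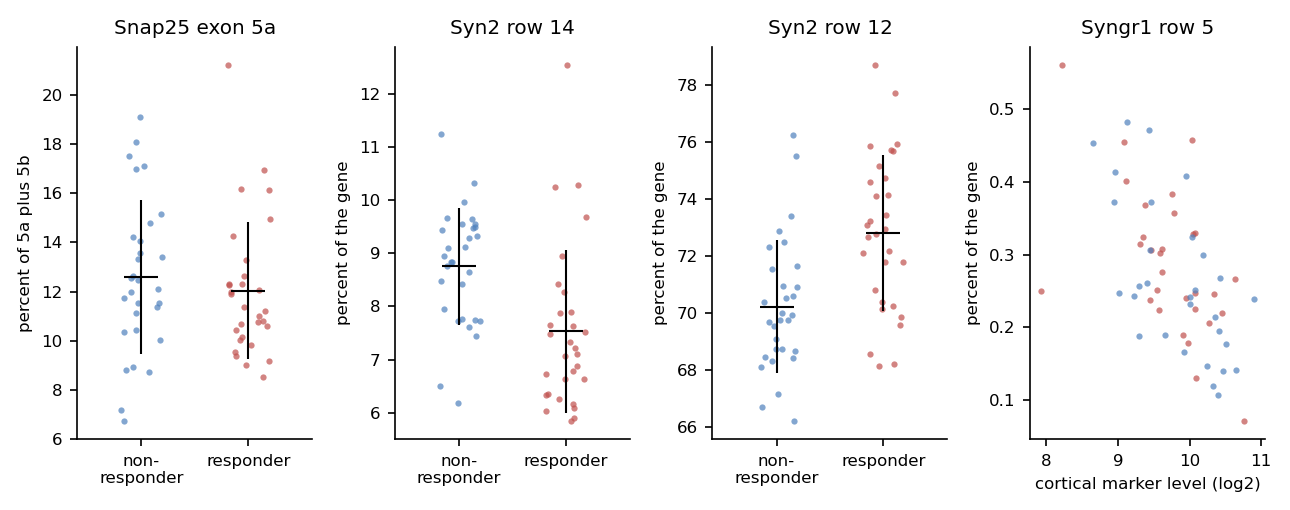
From left to right, the share of Snap25 exon 5a in the sum of 5a and 5b and the shares of rows 14 and 12 in Syn2, in percent, by phenotype (points for mice, n = 30 each, black marks for mean and SD), and the share of row 5 in Syngr1, in percent, against the cortical marker level. The phenotypes overlap throughout, with means of 12.04 and 12.6% for exon 5a, 7.53 and 8.76% for row 14 and 72.8 and 70.2% for row 12 in responders and non-responders, and the Syngr1 row declines from left to right.

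Exon use also followed the cortical marker level in a few members. The slope passed for 4 of 493 member rows, where it passed for 1.26% of all rows, a like share. Row 5 of Syngr1, the last exon of Syngr1-202, averaged only 30.1 in scaled reads. This row held 0.0712% to 0.561% of the gene (median 0.251%) and fell by -0.55 ± 0.10 (SE, adjusted p = 0.0003833 by limma). It kept its direction and passed with the 3′ bias as a term, without the 4 mice of strong bias and without the 17 of low depth. Row 7 of Snap23 (0.35) and row 8 of Syn2 (0.18) also passed, but neither did with the bias as a term. The coding part of the Syngr1 exon is given because it belongs to this transcript alone.

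Syngr1-202 last exon, coding part, chr15:80113166-80113255 (GRCm38, plus strand): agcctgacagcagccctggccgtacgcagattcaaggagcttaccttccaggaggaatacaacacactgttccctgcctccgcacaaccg

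By phenotype the share of row 5 of Syngr1 overlapped, at 0.289 ± 0.101% in responders and 0.264 ± 0.106% in non-responders (mean and SD, n = 30 each).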

How the data were processed

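Striatal polyA RNA of 60 mice was sequenced, and the authors aligned reads with Bowtie (version 0.12.7) and counted them by gene and by exon of the mm9 genome. The deposited gene values are a signal, reads multiplied by an upper quartile factor from edgeR (3.4.2). Whole reads were recovered from them for 100% of values to within 0.01 reads, and give the depths. The deposited exon values are a score, scaled reads rounded to whole numbers. Symbols, strands and lengths were taken from GENCODE M21 (GRCm38), where 8858 of 9066 identifiers matched. The length of a gene covers the exons of all its annotated transcripts, with shared bases counted once. Members and lists were chosen with earlier results of these data known.

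Tests used limma (3.58.1) with trend, for genes whose mean over the mice reached 10, after 1 was added to each value and log2 taken, which understates changes of low genes, with Benjamini-Hochberg adjustment over all genes. Exon ratios were fitted likewise with a pseudocount of 1. The fits were checked on simulated counts, where limma recovered 99.5% of 200 genes changed by 0.5 (log2) between responders and non-responders among 8535 genes, and 86% of 200 exon rows. There were 10 false calls among genes and 8 among exon rows. The simulated rows varied independently at a fixed dispersion, without the cortical marker level or 3′ bias, so these shares do not give the power in the real mice. edgeR (4.0.16) and DESeq2 (1.42.0) were run on recovered reads. Correlations used 100000 permutations. Named genes were the core proteins of release, the 5 members of smallest p by phenotype, the 5 highest per kilobase, the 5 of largest variation, the 5 largest slopes of each sign on the cortical marker level, the 5 exon rows of smallest p, the 5 closest pairs and the rows of Snap25. Genes named outside this rule illustrate their list and were chosen after their values were seen. Alternatives with mice 4, 5, 62 and 63 left out, within the 17 mice of low depth, and of the slopes on 3′ bias and of exon use on the cortical marker level were added after the data were seen. Sequences are from the GENCODE transcripts. Some results for single genes are not reported here.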

Additional observations from a re-analysis of the deposited data

How the results depend on the processing

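No member passed by phenotype, by sex or by their interaction under any alternative run, and the member counts of the cortical slope stayed within 1.5 times of 46 except within the 17 mice of low depth (15 of 59 members, 542 of 8820 genes). For the whole table, the phenotype count of 9 became 61 with the 3′ bias as a term, 14 with the cortical marker level, 20 with low depth, 23 by DESeq2, 5 at a mean of at least 500, 3 without the 17 mice of low depth and 0 within them, in females alone and in males alone. The sex count of 3 became 0 without the 17, where fewer mice were fitted. The cortical slope passed for 2871 genes at a mean of at least 500, where fewer genes were tested. The slope on 3′ bias passed for 3650 genes and 14 members without mice 4, 5, 62 and 63. For exon use by phenotype, 15 rows became 70 with the bias as a term (2 of members), 48 without those 4 mice (2 of members), 23 without mouse 63 (1 of members, row 14 of Syn2), 8 without the 17 and 0 within them. For exon use against the cortical level, 837 rows became 427 with the bias as a term (5 of members against 4) and 296 without the 4 mice (2 of members). Among the named members, the slopes of 3 turned with either fit past the threshold: Sv2c to -0.23 with the bias as a term, and within the 17 mice Syn3 to -0.0861 and Vamp5 to 0.0372. Turns of the other members were not listed. Over all members, 40 slopes were positive in the main fit. There were 36 when scaled to the total, 37 on Tbr1 alone and 37 without mice 4, 5, 62 and 63. The cause of these changes was not tested.

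No paired analysis was possible because the numbers in the labels belong to single mice and no number is shared by the groups. Depth limited the values of Stx19, Vamp5 and Vamp8, and nearly all exons under 75 bases could not be followed.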
